A study of Mus musculus with 31 samples.

Results

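The genes described here carry 1 hypothalamic satiety pathway from precursor to receptor, and 8 genes were chosen by name from the 54532 in the deposited count table. They are Pomc and Cartpt, which encode peptide precursors, Pcsk1, Pcsk2 and Cpe, which encode enzymes that process them, Mc3r and Mc4r, which encode melanocortin receptors, and Prcp, which encodes an enzyme that degrades the product. All 8 of the 8 had enough reads to enter the test, among 18743 genes that did.

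The 31 libraries hold total RNA from the hypothalamus of C57BL/6J mice, an inbred strain. Dams fed an obesogenic diet (high in fat and sugar) gave 7 daughters and control dams gave 8, while 8 sons came from obesogenic dams and 8 from control dams. Dams ate their diet while pregnant and while nursing. The offspring were weaned at postnatal day 21 and ate chow until 3 months of age, when every group, those of control dams included, went on the obesogenic diet for 4 weeks, and tissue was taken at 4 months. No group therefore stayed on chow, and the comparison is between maternal diets only. "Obesogenic" and "control" below name the diet of the dam. Because litters and animals are not named in the labels, a p-value here speaks of the spread between libraries, part of which may be technical.

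In the arcuate nucleus of the hypothalamus, neurons that make POMC restrain feeding. Prohormone convertase 1, the product of Pcsk1, cuts POMC to the ACTH stage, prohormone convertase 2, the product of Pcsk2, cuts further towards α-MSH, and carboxypeptidase E, the product of Cpe, trims the basic residues left at the cut ends. α-MSH acts on the receptors MC4R and MC3R, many of the same neurons also release CART peptide from Cartpt, and prolylcarboxypeptidase, the product of Prcp, shortens α-MSH to a form that no longer curbs feeding. Pituitary corticotrophs and melanotrophs also make POMC, so a dissection that keeps some pituitary adds Pomc reads.

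The sequences just upstream of the starts of 4 of these genes are shown because Pomc and Cartpt are the ligand genes and Pcsk1 and Pcsk2 covaried most closely. They come from a set of promoters at RefSeq starts on build GRCm38.p6, and the set used here held 6 of the 8 genes. Capitals mark 3 motifs, which were searched on both strands with overlaps allowed. The first is the usual core promoter box TATAAA. The next is the box bound by Sp1-type factors, spelled GGGCGG. The last is the core of the cyclic AMP response element, spelled TGACG.
Pomc, chr12:3954695-3954944, plus strand: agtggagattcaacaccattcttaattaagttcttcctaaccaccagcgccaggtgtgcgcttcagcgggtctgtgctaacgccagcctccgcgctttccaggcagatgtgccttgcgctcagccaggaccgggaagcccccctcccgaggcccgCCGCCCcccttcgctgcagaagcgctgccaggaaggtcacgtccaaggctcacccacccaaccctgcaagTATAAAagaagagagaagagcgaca
Cartpt, chr13:99900777-99900806, minus strand: ccggcgggcatTGACGTCAaacggcagcgg
Pcsk1, chr13:75089607-75089825, plus strand: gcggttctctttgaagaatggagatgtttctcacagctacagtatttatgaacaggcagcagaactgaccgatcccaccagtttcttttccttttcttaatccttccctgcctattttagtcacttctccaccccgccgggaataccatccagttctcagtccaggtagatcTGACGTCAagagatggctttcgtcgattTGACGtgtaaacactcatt
Pcsk2, chr2:143545883-143546132, plus strand: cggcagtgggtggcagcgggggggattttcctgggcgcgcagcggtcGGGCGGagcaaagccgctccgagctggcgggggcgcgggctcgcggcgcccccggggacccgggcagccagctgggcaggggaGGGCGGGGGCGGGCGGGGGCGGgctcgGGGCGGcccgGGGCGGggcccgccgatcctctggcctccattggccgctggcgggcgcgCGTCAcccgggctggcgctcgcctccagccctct

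The core promoter box of Pomc began 25 bases before the RefSeq start, and 12.4% of all 32851 windows of 250 bases before a start held TATAAA. Cartpt and Pcsk1 each held the full palindrome of the cyclic AMP response element, made of 2 overlapping cores, beginning 112 bases before the start of Cartpt and 78 before that of Pcsk1. Another core stood 50 bases before the start of Pcsk1 and another, on the minus strand, 34 bases before that of Pcsk2. At least 1 such core was held by 17.8% of all windows. The window of Pcsk2 was 82.4% G and C, against 46.8% for Pcsk1, and it held 7 boxes of the Sp1 type, 2 of them overlapping, where 32.7% of all windows held at least 1. The printed stretch of Pcsk1 stops where a longer Ensembl transcript begins, and that of Cartpt is kept to 30 bases because such a transcript covers its whole window, the printed bases included. The letters describe these windows and say nothing of which factor binds there.

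Some libraries went against their labels or stood apart, and most results are given with and without them. By sex-linked transcripts the libraries labelled control female 7 and control male 7 did not match their sex label. By correlation with the other libraries, 3 stood apart: obesogenic female 3 (median correlation 0.936), control female 5 (0.910) and control male 6 (0.914), while the other 28 ranged from 0.967 to 0.979. In control female 5 the summed level of 22 hypothalamic marker genes was 285 CPM, against 1090 to 3762 CPM in the other 30 libraries. The sum of 12 olfactory and telencephalic markers in it was 2285 CPM, against 262.4 to 525 CPM. Control male 6 had the highest hypothalamic sum, 3762 CPM. Leaving out these 5 libraries kept 26, which were 6 obesogenic females, 6 control females, 8 obesogenic males and 6 control males. Library totals were 23118626 to 38547288 read pairs, and levels are CPM, read pairs scaled to the library total, with TMM factors applied, unless a length scale is named.

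Ranked by mean level per kilobase of exonic length, as given per gene with the counts, the pathway spanned a wide range. This length is not that of 1 transcript, so the comparison between genes is approximate. Cpe stood at 926 ± 141 CPM per kb (SD, n = 31), Pomc at 94.6 ± 53.5, Cartpt at 90.2 ± 25.3, Pcsk2 at 30.6 ± 4.62, Pcsk1 at 16.1 ± 2.72, Mc3r at 3.42 ± 1.05, Prcp at 1.86 ± 0.281 and Mc4r at 1.41 ± 0.503 CPM per kb. The per-kilobase level of Cpe was above that of Pomc in 31 of 31 libraries, that of Pcsk2 above Pcsk1 in 31 and that of Pcsk1 above Mc3r in 31, with no overlap of the ranges. Pomc and Cartpt, neighbours in this order, had overlapping ranges and Pomc was the higher in only 11 of 31 libraries. Mc3r was above Prcp in 29 libraries, and Prcp above Mc4r in 24. By mean level per kilobase, the transcripts of both receptors were thus below those of the ligands and of the 3 processing enzymes, while Prcp lay between the receptors. That place of Prcp rests on its exonic length, 5497 bases against 2623 for Mc3r. Without a length scale the mean of Prcp, 10.2 CPM, was above that of Mc3r, 8.97 CPM.

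The same genes differed in how much they varied from library to library. The coefficient of variation of the CPM was 56.6% for Pomc, 35.6% for Mc4r, 30.7% for Mc3r and 28.01% for Cartpt, while it was 16.9% for Pcsk1, 15.1% for Pcsk2, 15.2% for Cpe and 15.1% for Prcp. Without the 5 libraries it was 45.6% for Pomc and 19.2% for Cartpt. The share of each gene's variance in CPM that lay between the 4 groups was 5.01% (Prcp) to 15.9% (Mc3r) in all libraries, and that of Mc3r was 28.2% without the 5 libraries.

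**Figure D1:**
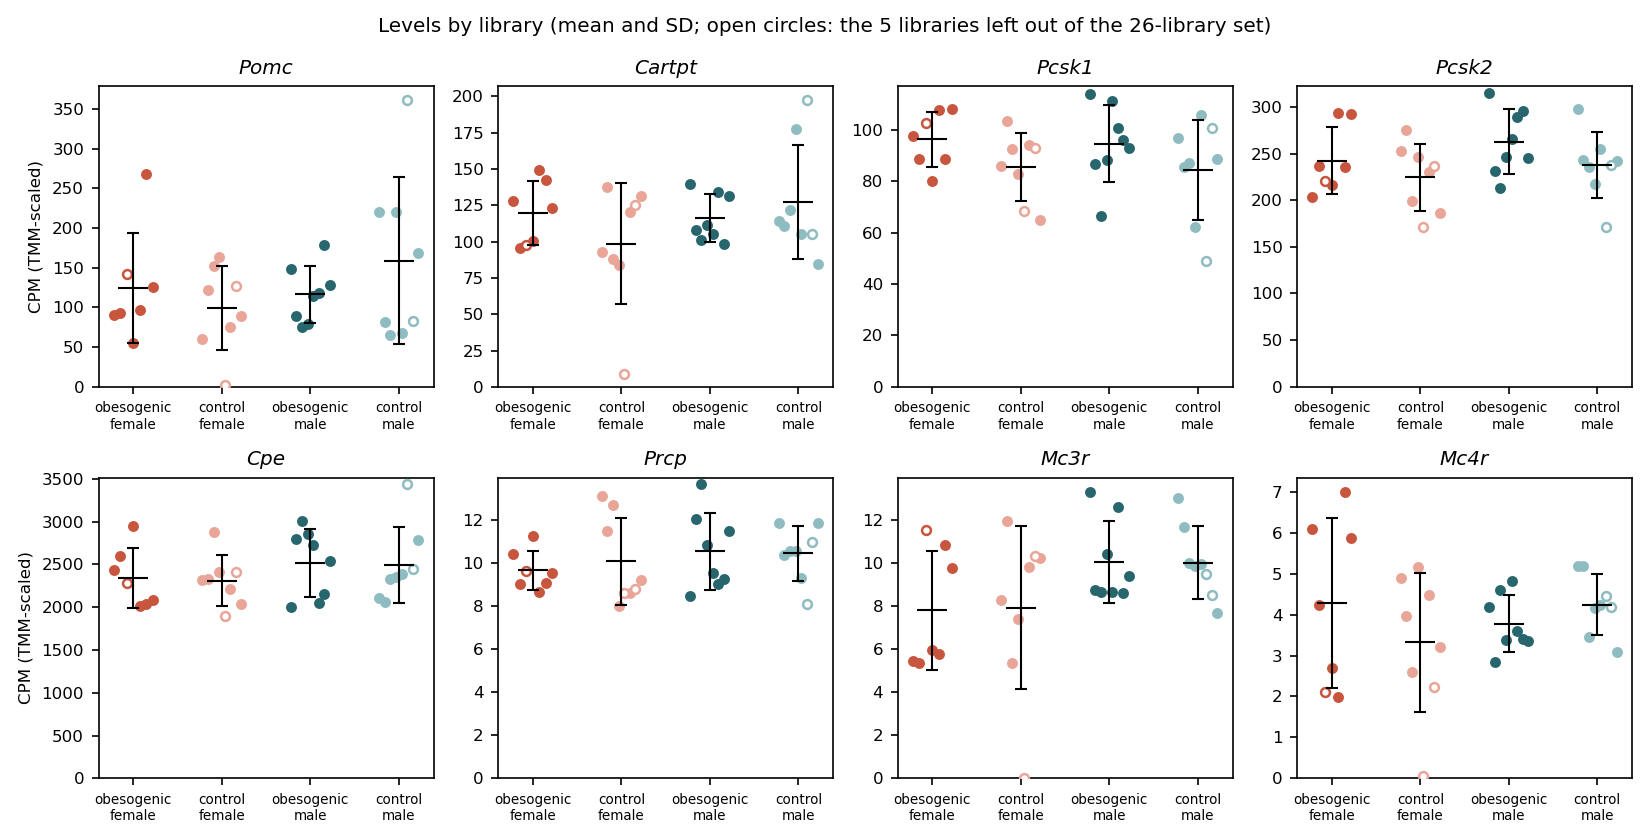
TMM-scaled CPM (vertical axis, from 0) of the 8 genes in each of the 31 libraries, by diet of the dam and sex of the offspring. Bars are group means with SD, and open circles are the 5 libraries left out of the 26-library set. The groups of every gene overlap, Pomc spreads widely in each group, and control female 5 lies lowest for Pomc, Cartpt, Mc3r and Mc4r.

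Maternal diet was compared within each sex, the contrast that the title of the series names. No gene passed in females or in males: edgeR's quasi-likelihood test, with 0.05 as the limit of the adjusted p, took 0 of 18743 genes (0%) in each, so 0 of the 8 genes stands against a background of 0%. At an unadjusted p under 0.05 there were 1522 genes in females and 647 in males, none of them among the 8. Without the 5 libraries, edgeR likewise called 0 of 18694 genes (0%) in each sex. DESeq2, run without edgeR's filter on low counts, called 6 of 32058 genes with a p-value in females and 1 in males. With quality weights, limma voom called 0 of 18743 in both. None of these was one of the 8. Between diets the levels of every one of the 8 overlapped in both sexes. The share of all genes that overlapped was not counted, so the overlap does not set these 8 apart. The values below describe sizes and their intervals.

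Pomc, the precursor of α-MSH (ENSMUSG00000020660, chromosome 12, 3954951 to 3960642, GRCm38), had the widest spread. In obesogenic females it lay at 55.6 CPM at the lowest, 97.0 at the median and 267.6 at the highest, against 2.78, 106 and 164 CPM in control females. In obesogenic males these values were 75.9, 116 and 179 CPM, against 65.6, 126 and 361 CPM in control males. Obesogenic female 6 stood far above the other 6 of its group, the highest of which was at 142 CPM, while control female 5 was far below and control male 6 far above the rest of their groups. The log2 fold change for obesogenic against control dams was 0.33 ± 0.47 (SE) in females (edgeR adjusted p = 0.852) and -0.45 ± 0.45 in males (adjusted p = 0.940). The diet change in females minus that in males was 0.77 ± 0.65 (adjusted p = 0.9996). Without the 5 libraries the diet changes were 0.14 ± 0.38 in females and -0.24 ± 0.35 in males, so the size in each sex moved by over 1.5 times while the direction stayed, and their difference was 0.37 ± 0.52.

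Cartpt, the CART precursor (ENSMUSG00000021647, chromosome 13, 99898489 to 99901091), was steadier. It lay between 95.5 and 149 CPM (median 123) in obesogenic females, against 8.89 to 137 CPM (median 107) in control females. In obesogenic males it was 98.6 to 140 CPM (median 110), against 84.8 to 198 CPM (median 112) in control males. The range of each obesogenic group fell almost wholly inside that of its control group, apart from the top of the obesogenic females. The log2 fold changes were 0.28 ± 0.28 in females and -0.13 ± 0.27 in males. They were 0.18 ± 0.15 and -0.03 ± 0.14 over the 26 libraries.

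The estimates of both convertases were above 0 in both sexes, and neither passed. Pcsk1 (ENSMUSG00000021587, chromosome 13, 75089826 to 75134861) was 80.2 to 108 CPM (median 97.6) in obesogenic females, against 65.0 to 103 CPM (median 89.2) in control females. In obesogenic males it was 66.5 to 114 CPM (median 94.5), against 49.0 to 106 CPM (median 87.9) in control males. Of the obesogenic libraries, 6 of 7 female and 7 of 8 male ones were above the mean of their control group, yet the ranges overlapped. Without the 5 libraries these counts were 5 of 6 and 6 of 8. Such counts were not made over all genes. The log2 fold change of Pcsk1 was 0.17 ± 0.13 in females and 0.16 ± 0.12 in males, and their mean was 0.17 ± 0.09 (95% interval -0.02 to 0.35, edgeR adjusted p = 0.512). Over this mean of the sexes 0 of 18743 genes (0%) were called, 1918 had an unadjusted p under 0.05, DESeq2 called 5 and limma voom 0. Over the 26 libraries the mean of the sexes was 0.12 ± 0.08 for Pcsk1.

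Pcsk2 (ENSMUSG00000027419, chromosome 2, 143546156 to 143816285) was 204 to 293 CPM (median 235) in obesogenic females, against 171 to 275.1 CPM (median 233) in control females. It was 214 to 315 CPM (median 255.9) in obesogenic males, against 171 to 298 CPM (median 240) in control males. The lowest values were those of control female 5 and control male 6. The log2 fold change was 0.11 ± 0.11 in females and 0.15 ± 0.11 in males, with a mean of 0.13 ± 0.08 (95% interval -0.03 to 0.28, edgeR adjusted p = 0.544). Over the 26 libraries it was 0.09 ± 0.10 in females and 0.08 ± 0.10 in males, with a mean of 0.08 ± 0.07, so the sizes in males and over both sexes moved by over 1.5 times.

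Cpe (ENSMUSG00000037852, chromosome 8, 64592542 to 64693054), which is also one of the sorting and processing enzymes of many other peptides, was 2009 to 2952 CPM (median 2285) in obesogenic females, against 1896 to 2882 CPM (median 2324) in control females. In males it was 1998 to 3003 CPM (median 2633) with obesogenic dams, against 2059 to 3437 CPM (median 2369) with control dams. The ranges of the groups overlapped over most of their length. Averaged over the sexes, the log2 fold change of Cpe was 0.02 ± 0.08, with a 95% interval of -0.14 to 0.18, so the interval held changes of this size in either direction. It was 0.02 ± 0.11 in females and 0.02 ± 0.11 in males. Over the 26 libraries these were -0.01 ± 0.11 and 0.11 ± 0.10.

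Prcp, the α-MSH-degrading enzyme (ENSMUSG00000061119, chromosome 7, 92874470 to 92934583), lay at 8.68 to 11.3 CPM (median 9.55) in obesogenic females, against 8.04 to 13.2 CPM (median 9.01) in control females. In obesogenic males it lay at 8.49 to 13.7 CPM (median 10.2), against 8.10 to 11.9 CPM (median 10.6) in control males. The obesogenic females were the narrowest group, inside the range of the control females. The log2 fold changes were -0.06 ± 0.12 in females and 0.01 ± 0.12 in males. Over the 26 libraries they were -0.12 ± 0.13 and -0.03 ± 0.12, so the sign in males changed.

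The receptors were counted less deeply, with 140 to 450 read pairs per library for Mc3r and 52 to 235 for Mc4r outside control female 5. Mc3r (ENSMUSG00000038537, chromosome 2, 172248492 to 172251114) is a melanocortin receptor found on POMC neurons themselves among others. It was 5.34, 5.45, 5.76, 5.97, 9.74, 10.8 and 11.5 CPM in the 7 obesogenic females, against 0, 5.37, 7.39, 8.26, 9.82, 10.2, 10.3 and 11.9 CPM in the 8 control females. No obesogenic female lay between 5.97 and 9.74 CPM, where 2 of the control females did, and the groups overlapped. The value of 0 is control female 5, in which 0 of 36357028 read pairs allows up to 0.0811 CPM.

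In males Mc3r was 8.58 to 13.3 CPM (median 9.07) with obesogenic dams, against 7.65 to 12.998 CPM (median 9.89) with control dams. Its log2 fold changes for maternal diet were -0.02 ± 0.39 in females and 0.00 ± 0.38 in males. Without the 5 libraries the change in females was -0.30 ± 0.19 (edgeR adjusted p = 0.672), with 2 of 6 obesogenic females above the control female mean.

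Mc4r (ENSMUSG00000047259, chromosome 18, 66857715 to 66860472), the receptor through which α-MSH chiefly lowers food intake, was 1.996, 2.11, 2.69, 4.23, 5.88, 6.10 and 7.005 CPM in obesogenic females. It was 0.0540, 2.22, 2.60, 3.20, 3.97, 4.48, 4.89 and 5.17 CPM in control females, the lowest being control female 5. The obesogenic females held the 3 highest of these 15 values and 2 of the 3 lowest above control female 5. In males it was 2.84 to 4.83 CPM (median 3.50) with obesogenic dams, against 3.09 to 5.199 CPM (median 4.21) with control dams. The log2 fold changes were 0.37 ± 0.37 in females and -0.17 ± 0.36 in males, and 0.20 ± 0.23 and -0.16 ± 0.22 without the 5 libraries.

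**Figure D2:**
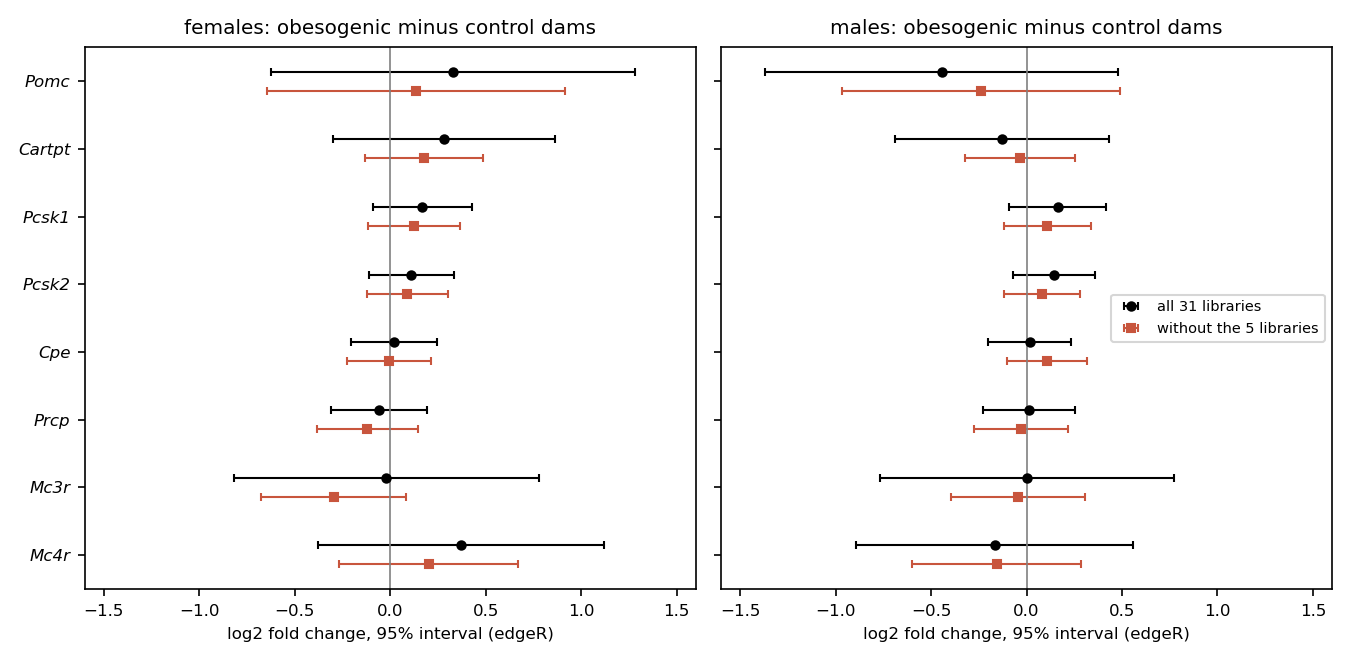
Log2 fold change (horizontal axis) of the 8 genes for obesogenic against control dams in female offspring (left) and male offspring (right), with 95% intervals from edgeR. Circles are the fit to all 31 libraries and squares the fit without the 5 libraries. Every interval spans 0, and those of Pcsk1, Pcsk2, Cpe and Prcp are the narrowest.

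The response to maternal diet did not pass a test of difference between the sexes for any of the 8 genes, nor for any gene: 0 of 18743 (0%) were called by edgeR, with 679 at an unadjusted p under 0.05, 6 calls by DESeq2 and 0 by limma voom. Females were also set against males within each maternal diet. In the fit to all libraries, 0 of 18743 genes (0%) were called with obesogenic dams and 0 (0%) with control dams, with 681 and 823 at an unadjusted p under 0.05. DESeq2 called 12 and 2, and limma voom 3 and 0. The edgeR fit to all libraries kept the 2 libraries against their sex label and did not call Xist, a sex-linked transcript. Xist was 203 to 716 CPM in obesogenic females and at most 0.0558 CPM in obesogenic males. These 0 calls therefore do not show that no gene differed between the sexes. Without the 2 libraries against their sex label, 9 and 10 of 18581 genes were called. Without the 5 libraries, 14 of 18694 genes (0.0749%) and 11 (0.0588%) were called, and again none of the 8. The smallest unadjusted p among the 8 was then that of Mc3r with obesogenic dams, which in females against males had a log2 fold change of -0.48 ± 0.17 (edgeR adjusted p = 0.796), with 1 of 6 females above the male mean.

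Carry-over of pituitary was read from Prl (prolactin) and Gh (growth hormone), which hypothalamus hardly makes. Their summed level ran from 0 to 6110 CPM with a median of 188 CPM, and control female 4 was the highest. Neither gene had a read in obesogenic female 5 or control female 5. The sum over a list of 16 pituitary genes was 38.3 to 1270 CPM in obesogenic females, 0.378 to 6223 CPM in control females, 64.0 to 393 CPM in obesogenic males and 57.3 to 1071 CPM in control males. Pomc reads did not vanish where Prl and Gh did. In the 6 libraries with Prl plus Gh under 5 CPM that did not stand apart, Pomc was 55.6 CPM in obesogenic female 4, 75.6 in control female 6, 89.6 in control female 8, 89.8 in obesogenic female 1, 97.0 in obesogenic female 5 and 148 in obesogenic male 1. Their median was 89.7 CPM, against 120 CPM (60.4 to 267.6) in the 22 others that did not stand apart. Low Prl plus Gh does not show that these 6 held no pituitary transcripts. Cga, another gene of the pituitary list, was 14.4 CPM in control female 6 and 8.24 in obesogenic male 1. It was 5.82 CPM in obesogenic female 1, 4.59 in obesogenic female 4, 3.98 in control female 8 and 0 in obesogenic female 5. Control female 4, with the most Prl and Gh, had 164 CPM of Pomc.

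Across the 26 libraries, with group means removed, log2 Pomc and log2 Prl plus Gh had a Pearson's r of 0.376 (permutation p = 0.0723, adjusted p = 0.260) and a Spearman's rho of 0.451 (permutation p = 0.0252, adjusted p = 0.130). Without the 2 libraries farthest from the median of Prl plus Gh, r was 0.402. With all 31 libraries r was 0.539 (permutation adjusted p = 0.0304) and rho 0.560 (adjusted p = 0.0223), so this relation passed only with the 5 libraries in. None of the other 7 genes passed with Prl plus Gh in either set. With the pituitary level as a term in the edgeR fit, the diet change of Pomc was 0.42 ± 0.42 in females (adjusted p = 0.789) and -0.26 ± 0.41 in males (adjusted p = 0.954), the male value being smaller by over 1.5 times than without that term. How much of the Pomc in any 1 library came from pituitary cannot be read from these sums, and in bulk tissue fewer cells of a type cannot be told apart from less RNA per cell.

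**Figure D3:**
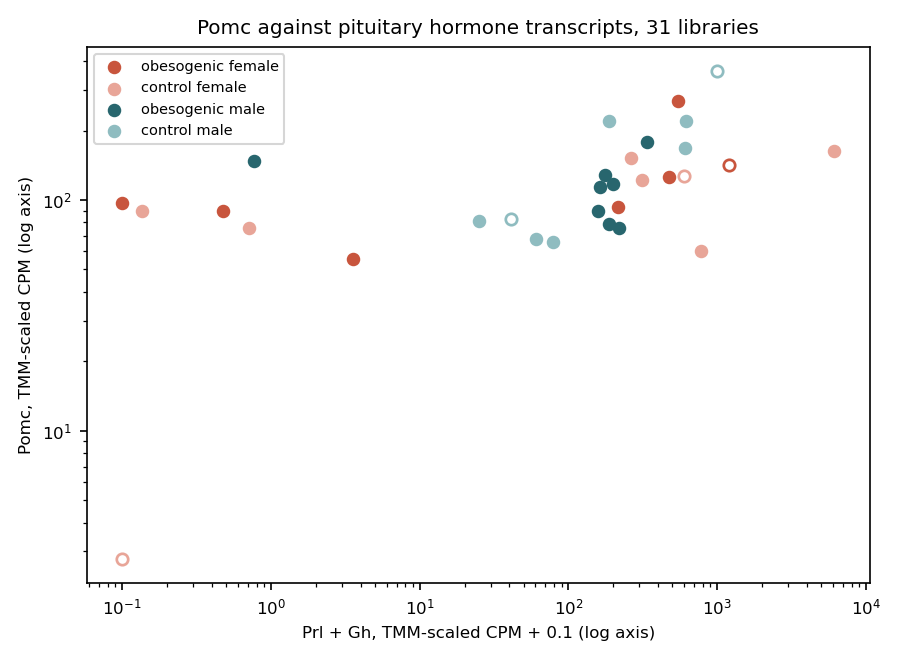
Pomc (vertical axis, TMM-scaled CPM, log scale) against Prl plus Gh (horizontal axis, TMM-scaled CPM with 0.1 added, log scale) in 31 libraries, coloured by group, with open circles for the 5 libraries left out of the 26-library set. Among the libraries at the left edge, Pomc lies between 55.6 and 148 CPM except in control female 5 at 2.78 CPM.

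The 8 genes were next compared with each other across libraries, within groups. Of the 28 pairs, 6 passed by both Pearson's r and Spearman's rho over the 26 libraries, with permutation p-values adjusted over these pairs and the 8 relations with Prl plus Gh. The closest pair was Pcsk1 and Pcsk2, the convertases that act one after the other on POMC, with r = 0.727 (permutation p = 7.0e-05, adjusted p = 0.00252) and rho = 0.719 (permutation p = 0.00024, adjusted p = 0.00864). Their r was 0.686 without the 2 libraries farthest from the Pcsk1 median (adjusted p = 0.0128), and within the groups it was 0.73 in obesogenic females, 0.67 in control females, 0.84 in obesogenic males and 0.73 in control males. It was 0.775 over all 31 libraries.

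**Figure D4:**
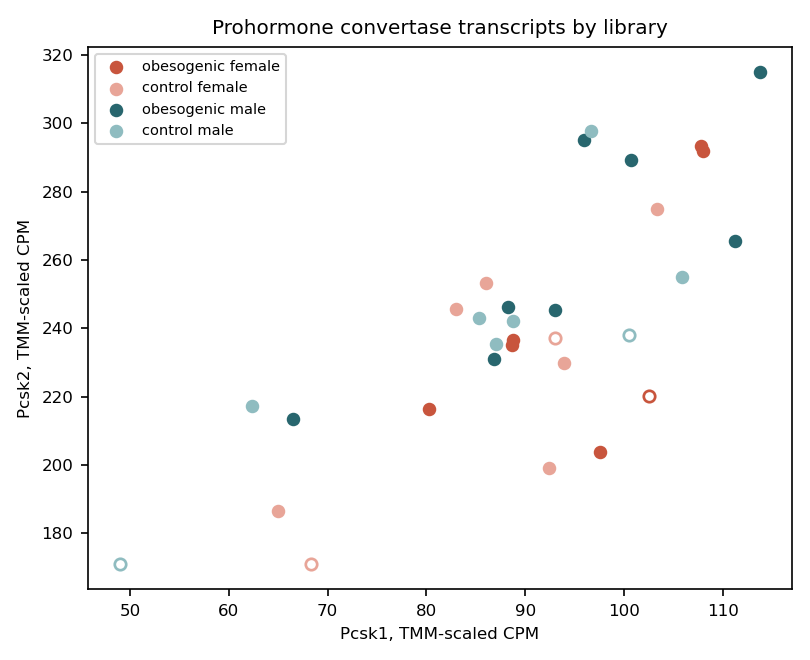
Pcsk2 against Pcsk1 (both in TMM-scaled CPM, linear axes that do not start at 0) in 31 libraries, coloured by group, with open circles for the 5 libraries left out of the 26-library set. The libraries of each group lie along the same rising band, from control male 6 at 49.0 and 171 CPM to obesogenic male 1 at 114 and 315 CPM.

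A second set of pairs turned on Cpe. Its level was inverse to that of Mc3r (r = -0.688, permutation adjusted p = 0.00378; rho = -0.608, adjusted p = 0.0260), of Pcsk2 (r = -0.579, adjusted p = 0.0312; rho = -0.577, adjusted p = 0.0332) and of Cartpt (r = -0.575, adjusted p = 0.0215; rho = -0.621, adjusted p = 0.0187). It ran with that of Prcp (r = 0.609, permutation adjusted p = 0.0180; rho = 0.577, adjusted p = 0.0268). The last of the 6 pairs was Cartpt and Mc3r (r = 0.578, permutation adjusted p = 0.0312; rho = 0.626, adjusted p = 0.0264). Pearson's r within each of the 4 groups had the pooled sign for all 6 pairs, with r from -0.36 to -0.86 for Cartpt and Cpe and from 0.30 to 0.87 for Cartpt and Mc3r. For Pcsk2 and Cpe, r ran from -0.92 in obesogenic males to -0.00 in control females. Spearman's rho of this pair in control females was 0.26, so it did not keep the pooled sign there.

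These pairs rested on the libraries used. Without the 2 libraries farthest from the median of the gene named first, Pcsk2 with Cpe had an adjusted p of 0.133 (r = -0.508) and Cpe with Prcp one of 0.0656 (r = 0.534), so that 4 pairs passed by permutation. With all 31 libraries 1 pair, Pcsk1 and Pcsk2, passed by both measures. Pearson's r then turned positive for Cartpt and Cpe (r = 0.159) and for Cpe and Mc3r (r = 0.108), while rho stayed negative at -0.108 and -0.229. Pomc with Cartpt had r = 0.829 (permutation adjusted p = 0.0410) and rho = 0.560 (adjusted p = 0.0706) in that set, against r = 0.213 over the 26, so it passed by r alone. Control female 5 and control male 6 lie at the low and the high end of Pomc and Cartpt in that larger set. Without these 2 libraries r was 0.442.

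Correlations with other genes give the scale for these values. Of 18726 other genes, 1.44% had a higher rho with Pcsk1 than Pcsk2 did, and 3.68% had a higher rho with Pcsk2 than Pcsk1 did. The middle 90% of all genes ran from a rho of -0.61 to 0.68 with Pcsk2 and from -0.38 to 0.36 with Pomc, so a value that is far out for Pomc is common for Pcsk2. The rho of Pcsk2 and Cpe lay inside the middle 90% for both genes, with 6.34% of other genes further out on the same side for Pcsk2 and 5.91% for Cpe. For Cpe the share further out was 4.17% with Cartpt, 4.66% with Mc3r and 4.97% with Prcp. Seen from the partner, those shares were 1.01% for Cartpt, 1.29% for Mc3r and 0.806% for Prcp. Pomc passed with none of the other 7 genes over the 26 libraries, and its largest r was with Cpe (r = -0.297, permutation p = 0.152, adjusted p = 0.406; rho = -0.277, adjusted p = 0.422). That r pools groups of opposite sign. It was -0.75 in obesogenic females and -0.82 in obesogenic males, against 0.59 in control females and 0.12 in control males. Of the 28 pairs, 3 had 1 sign in both obesogenic groups and the other in both control groups. A difference in r between diets was not tested. None of 32 relations of the 8 genes with library depth or with the summed hypothalamic, thalamic or olfactory markers passed. The 2 largest were those of Pcsk2 with the thalamic sum (r = 0.469, permutation adjusted p = 0.478; rho = 0.480, adjusted p = 0.599) and with the hypothalamic sum (r = -0.428, adjusted p = 0.478; rho = -0.400, adjusted p = 0.599).

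**Figure D5:**
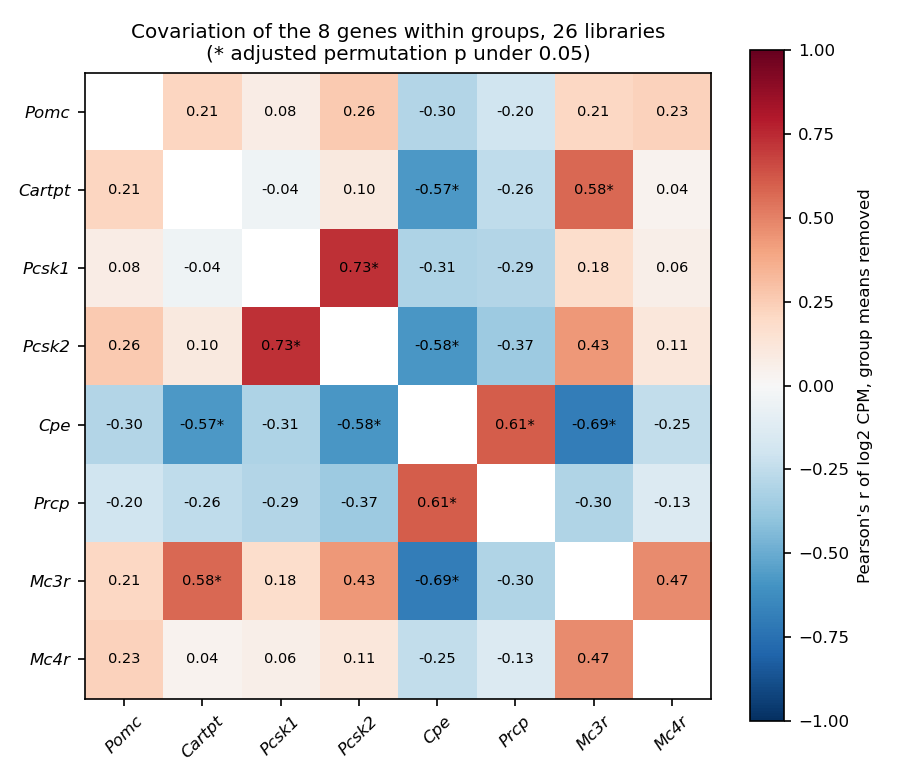
Pearson's r between the log2 CPM of each pair of the 8 genes, group means removed, over 26 libraries, with red for positive and blue for negative r and an asterisk where the permutation p adjusted over 36 relations is under 0.05. The convertases Pcsk1 and Pcsk2 form the strongest positive pair at 0.73, and Cpe is inverse to Cartpt, Pcsk2 and Mc3r.

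The genes whose levels ran closest to 4 of the 8 were ranked by Spearman's rho over the 26 libraries, among 15023 genes with a name that is no predicted model, and are given as a description. Nearest to Pomc were Cish, an inhibitor of cytokine signalling, at a rho of 0.693, then Dph6, Creb3l1, St14 and Zfp819, the last at 0.664. Nearest to Cartpt were Rrad at 0.831, Myh7, Cited1, Tmem132a and Crip2 at 0.790. Nearest to Pcsk1 were Cntnap5a at 0.891, Pcdhb17, Cdh6, Far1 and Glra3 at 0.869, all 5 above the 0.719 of Pcsk2. Nearest to Mc4r were Dmtf1 at 0.764, Plekha1, Lrrc15, Trmt5 and Prkaa2, a catalytic subunit of the energy sensor AMPK, at 0.666. Zfp819, Lrrc15 and St14 were read at low levels, with a mean log2 CPM of -2.11, -1.98 and -0.35.

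Marker lists of tissue regions were counted for the same diet comparisons, and no marker was called. Of 21 hypothalamic markers tested, 15 were higher and 6 lower in females (median log2 fold change 0.13), and 1 was higher and 20 lower in males (median -0.21). Over the 26 libraries these were 9 and 12 in females (median -0.03) and 3 and 18 in males (median -0.11). Of 11 olfactory and telencephalic markers tested, 1 was higher and 10 lower in females (median -1.15) and 5 higher and 6 lower in males (median -0.01), and without the 5 libraries, control female 5 among them, the counts in females were 4 and 7 (median -0.01). Of the pituitary markers 14 were tested, with 5 higher and 9 lower in females (median -0.31) and 9 higher and 5 lower in males (median 0.02). Over the 26 libraries 15 were tested and the medians lay further from 0. In females 3 were then higher and 12 lower (median -0.46), and in males 10 were higher and 5 lower (median 0.20). The part of the hypothalamic and olfactory shifts in the diet changes of the 8 genes was not tested.

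Lists of other genes of the pathway, counted beside the 8, also held no call for maternal diet in either sex. Of 21 further genes of peptide processing, 20 were tested in females, with 10 higher and 10 lower and a median log2 fold change of 0.01, against -0.01 for all genes. In males 12 were higher and 8 lower (median 0.04, against 0.00 for all genes). Of 15 other melanocortin pathway genes 11 were tested, with 9 higher and 2 lower in females (median 0.10) and 7 higher and 4 lower in males (median 0.03). Of 18 regulators of Pomc and markers of Pomc neurons 18 were tested, with 14 higher and 4 lower in females (median 0.08) and 9 and 9 in males (median 0.01). Over the 26 libraries the 14 and 4 in females became 8 and 10, and the 9 and 2 became 6 and 5.

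Among the processing genes Vgf, the precursor of several neuroendocrine peptides, had the smallest p in females, with a mean of 191 ± 43.5 CPM in obesogenic females (SD, n = 7), against 139 ± 55.3 CPM in control females (SD, n = 8). That made a log2 fold change of 0.46 ± 0.18 (edgeR adjusted p = 0.549), and 0.27 ± 0.16 without the 5 libraries. Ctsl, a protease that can also cut prohormones, followed at -0.09 ± 0.06 and Prepl, a prolyl peptidase relative, at 0.30 ± 0.21. In males the smallest p-values belonged to Prep, a prolyl peptidase, at 0.24 ± 0.12 (edgeR adjusted p = 0.940), Qpct, which forms N-terminal pyroglutamate, at 0.17 ± 0.11 and Prepl at 0.28 ± 0.20. Without the 5 libraries Qpct was at 0.08 ± 0.08 and Prepl at 0.14 ± 0.12. Prepl, Vgf and Cpd, a carboxypeptidase, led the mean of the sexes, at 0.29 ± 0.14, 0.23 ± 0.12 and 0.14 ± 0.08, and over the 26 libraries they were at 0.18 ± 0.09, 0.13 ± 0.11 and 0.11 ± 0.06.

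Among the other melanocortin genes the smallest p in females was that of Adcy3, an adenylyl cyclase, at 87.1 ± 11.6 CPM in obesogenic females (SD, n = 7), against 73.1 ± 14.6 CPM in control females (SD, n = 8). That made a log2 fold change of 0.25 ± 0.11 (edgeR adjusted p = 0.579), and 0.14 ± 0.09 without the 5 libraries. Ntrk2, the BDNF receptor, was at 0.17 ± 0.13 and Sdc3, a syndecan, at 0.08 ± 0.08, and without the 5 libraries at 0.02 ± 0.12 and -0.02 ± 0.06. In males Atrn (attractin) was at 0.17 ± 0.13, Mgrn1 (mahogunin) at 0.07 ± 0.06 and Bdnf at 0.23 ± 0.19, against 0.10 ± 0.10, 0.04 ± 0.06 and 0.18 ± 0.16 without the 5 libraries. Adcy3, Mgrn1 and Atrn led the mean of the sexes, at 0.14 ± 0.08, 0.06 ± 0.04 and 0.12 ± 0.09, and that of Adcy3 was 0.07 ± 0.06 over the 26 libraries.

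Among the regulators, 2 parts of leptin signalling had the smallest p in females. Socs3, the feedback inhibitor of the leptin receptor, was 4.26 ± 1.49 CPM in obesogenic females (SD, n = 7), against 3.06 ± 0.636 CPM in control females (SD, n = 8), a log2 fold change of 0.48 ± 0.19 (edgeR adjusted p = 0.549). Stat3, which carries the leptin signal to the Pomc gene, was 102 ± 9.73 CPM, against 87.8 ± 6.47 CPM, a log2 fold change of 0.22 ± 0.09 (edgeR adjusted p = 0.549). In males Stat3 was 93.96 ± 9.66 CPM with obesogenic dams, against 84.9 ± 12.6 CPM with control dams (SD, n = 8 each), a log2 fold change of 0.15 ± 0.08, and 0.10 ± 0.07 without the 5 libraries. Its mean over the sexes, 0.18 ± 0.06, had an edgeR adjusted p of 0.464, and was 0.17 ± 0.05 without the 5 libraries. Neither gene passed in any of these comparisons.

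Prdm12, a factor needed for Pomc expression in mice, followed in females at 0.69 ± 0.40, with control female 5 at 0 CPM, and was at 0.24 ± 0.22 without the 5 libraries. In males the smallest p was that of Anxa2, at 24.1 ± 2.92 CPM with obesogenic dams, against 32.3 ± 11.3 CPM with control dams (SD, n = 8 each). That made a log2 fold change of -0.42 ± 0.15 (edgeR adjusted p = 0.940), and -0.26 ± 0.11 without the 5 libraries. Ttr, the thyroid hormone carrier of the choroid plexus, was at -1.05 ± 0.60. Of the difference between the sexes in the diet change, the smallest p-values in the 3 lists were those of Anxa2 (0.43 ± 0.21), Vgf (0.47 ± 0.24) and Socs3 (0.49 ± 0.26), each with an edgeR adjusted p of 0.9996. Without the 5 libraries these were 0.16 ± 0.16 for Anxa2, 0.26 ± 0.21 for Vgf and 0.49 ± 0.29 for Socs3.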

How the data were processed

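RNA of mouse hypothalamus was measured in 31 libraries in 4 labelled groups. RNA isolation used the RNAqueous kit and library preparation Illumina TruSeq, per the labels' protocols. Build mm10, FastQC, TopHat2 2.0.13, edgeR and Subread are named, per the submitters' processing notes. The deposited values are, per the file headers, whole-number counts of read pairs per gene from featureCounts 1.6.2 on Ensembl GRCm38 release 94, with a minimum mapping quality of 10 and reverse strand. The counts were not normalized, 0 columns were left unused, and 54409 of 54532 gene IDs matched a symbol. The most similar 2 libraries had a chi-square per degree of freedom of 10.4 over genes, where sampling alone gives about 1, so 0 were treated as repeats.

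The counts were fitted with edgeR 4.0.16 in R 4.3.3 (filterByExpr, TMM, robust quasi-likelihood fit of 4 group means over all libraries), and p-values were adjusted by Benjamini and Hochberg over all genes tested, with a threshold of 0.05. Standard errors were computed from the log2 fold change and its F statistic. Correlations used log2 CPM (prior count 2; 0.1 CPM added to Prl plus Gh) with group means removed and 100000 permutations within groups, two-sided, of which the smallest p is 1e-05, adjusted over 36 relations. A library was said to stand apart when its median correlation with the others fell more than 3 median absolute deviations under the middle of all libraries. Levels of near-identical or overlapping genes can be undercounted. Scripts were tested on simulated data.

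The 8 genes and the lists were chosen with earlier results of these data known. The genes named beside the 8 were the 5 most like each of Pomc, Cartpt, Pcsk1 and Mc4r, and the 3 of smallest p per list and diet comparison, of which a part is printed for the difference between the sexes. Alternatives were DESeq2 1.42.0, limma 3.58.1 voom with quality weights, RLE factors, testing without a filter or with at least 1 CPM required in 7 libraries, 2 surrogate variables (sva 3.50.0), only the groups compared, the pituitary level as covariate, libraries left out by rule, and each library left out in turn. DESeq2 was given every gene with a read, and 32058 is its number of genes with a p-value, where edgeR and voom tested 18743. Its default filtering at the adjustment was left on, so its adjusted p-values may cover fewer genes. Leaving out the 5 libraries together with the pituitary covariate, and the 32 relations with depth and marker sums, were chosen after seeing the data.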

Additional observations from a re-analysis of the deposited data

Results flagged for a closer look

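Of 36 groups of values examined for a single far sample with Dixon's test, which by chance marks about 1 group in 20, 3 held one. Obesogenic female 6 had 267.6 CPM of Pomc, where the next highest of the 7 had 142 CPM. Control female 5 had 8.89 CPM of Cartpt, where the next lowest of the 8 had 83.7 CPM; the same library had 0 reads of Mc3r and a hypothalamic marker sum of 285 CPM. Control female 4 had 6110 CPM of Prl plus Gh, where the next highest of the 8 had 778 CPM, and its Pomc, 164 CPM, was also the highest of its group.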

How the results depend on the processing

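For the 8 genes, 656 log2 fold changes were recomputed under 14 alternatives: 596 kept their direction, 60 changed sign while not called, and 0 were called (smallest adjusted p 0.419, with 2 surrogate variables). Leaving out each library in turn gave 1488 values with 104 changes of sign and 0 calls. Without the 2 libraries that have 2 numbers in the title, 5 of 48 values changed sign and 0 were called. The correlations were not recomputed without both of these libraries. Calls over all genes, 0 in each comparison by edgeR, were by DESeq2 6 for diet in females, 1 in males, 5 for the mean of the sexes, 6 for diet by sex, 12 for sex with obesogenic dams and 2 with control dams; the cause was not tested. For sex with obesogenic dams they were 3 with voom, 12 with only the groups compared, 5 with 2 surrogate variables, 9 without the libraries against their sex label, 1 without those that stand apart, 14 without the 5 libraries, 13 with the pituitary covariate added to that, and 0 to 9 with each library left out (9 without control female 7, 3 without control male 7, 2 without control male 6). For sex with control dams they were 10, 11 and 13 without the libraries against their label, without the 5, and without the 5 with the covariate, and 0 to 6 with each library left out (6 without control female 7, 1 without control male 7). Of the 28 pairs, 6 passed by both r and rho, and 3 did with group means kept, 1 with all 31 libraries and 6 without TMM factors. By r alone 4 passed without the 2 farthest libraries and 5 with all 31, of which Pomc with Cartpt and Pcsk2 with Mc3r were not among the 6. With all 31 libraries, r turned to 0.159 for Cartpt and Cpe and to 0.108 for Cpe and Mc3r (rho -0.108 and -0.229), and 1 relation with Prl plus Gh passed. Counting depth limits the receptors, at 52 to 450 read pairs outside control female 5. No paired analysis was possible because replicate numbers only follow accession order.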
